A study of Homo sapiens with 10 samples.

Results

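Control hTERT RPE-1 cells grown on a stiff substrate of 120 kPa were compared with control cells on a softer substrate of 10 kPa, across all expressed genes. The comparison used every library whose title names a control and 1 of the 2 stiffnesses: 3 libraries at 120 kPa and 2 at 10 kPa, 5 of the 10 RNA sequencing libraries of the study. RPE-1 (CRL-4000) is an established human line of retinal pigment epithelial origin, immortalised with the telomerase gene TERT, and the labels call the cells epithelial. The other 5 libraries came from RPE-1 cells given siNemp1, which targets the nuclear envelope membrane protein NEMP1, with 2 libraries at 10 kPa and 3 at 120 kPa. The treatment label is the same for control and siNemp1 libraries and speaks of siRNA, and what the control cells received, the substrate material and the time on it were not given in these sources.

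Cells read the stiffness of the surface they adhere to through integrins, which link the matrix to actin at focal adhesions. Actomyosin tension then passes to the nucleus through the LINC complex, built of SUN proteins in the inner and nesprins in the outer nuclear membrane, and reaches lamin A beneath it. On stiff surfaces many adherent cells keep the coactivators YAP and TAZ in the nucleus, where TEAD factors recruit them to genes such as CCN1, CCN2 and ANKRD1, and tension also acts on SRF and its coactivators to set actin and myosin genes. RPE-1 cells are spread, migratory and contractile in culture, which is why they are much used for such work.

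The deposited table held 40664 genes, of which 13990 passed a filter on low counts and were tested. The 5 control libraries held 17.9 to 23.2 M estimated counts (M for 1000000). Values are in CPM, counts per 1000000 after TMM scaling between libraries, which corrects for depth and composition but not for gene length. Of the pigment epithelium markers, OTX2, MITF and BEST1 had 437 to 3091 counts, whereas RPE65, TTR, DCT, RLBP1 and SLC16A8 had at most 2 counts in any control library. The epithelial keratins KRT8 and KRT18 were abundant and the epithelial surface genes CDH1 and EPCAM had at most 3 counts. NEMP1 itself was at 14.1 and 17.3 CPM in control cells at 10 kPa and at 18.3, 14.05 and 14.07 CPM at 120 kPa, against 4.11 to 8.22 CPM in the siNemp1 libraries. The labels do not say that replicates were separate cultures, so a p-value here reflects how far the libraries scatter, and that scatter may be technical.

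The libraries at 120 kPa differed among themselves far more than those at 10 kPa. Chi-square per gene, which is near 1 for sampling noise alone, was 2.67 between the control libraries at 10 kPa and 31.7 to 97.3 between pairs at 120 kPa. In replicate 1 at 120 kPa, the genes in the highest quartile of GC content had a median log2 difference of −0.38 from the 10 kPa mean, against 0.12 and 0.18 in replicates 2 and 3. Replicate 3 at 120 kPa had 7.28% of its counts in ribosomal protein genes, against 4.83% to 5.31% in the other control libraries, and 0.913% in mitochondrial genes, against 1.40% to 1.73%. The part that these library properties played in any result was not tested. The counts of gene lists below are also given without replicate 1 at 120 kPa, the library whose omission moved the counts over all genes most.

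Across the tested genes the response was small and rarely larger than the spread between libraries. The median log2 difference between 120 and 10 kPa was −0.0055, and the middle 90% of genes lay between −0.47 and 0.60. Two-sided quasi-likelihood tests in edgeR, with Benjamini-Hochberg adjustment across the tested genes, called 2 genes at an adjusted p under 0.05, which is 0.0143% of those tested. Both fell, and none of the genes passed upward, where 308 (2.2%) had an unadjusted p under 0.05 against 261 (1.87%) downward. A limma voom fit that gives less weight to the more variable libraries called 26 genes (0.186%), 3 higher (0.0214%) and 23 lower (0.164%) at 120 kPa. Its weights were 0.262, 2.23 and 0.407 for control replicates 1, 2 and 3 at 120 kPa, and 2.32 and 2.17 at 10 kPa. The 120 kPa level in every voom result for control cells thus rests mostly on replicate 2. DESeq2 called 12 of 23537 (0.051%), 1 higher and 11 lower. In bulk RNA, fewer cells with a transcript and less of it per cell cannot be told apart.

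The ranges of the groups were also compared gene by gene. In 1447 genes (10.3%) all 3 control libraries at 120 kPa lay above both at 10 kPa, and in 1661 (11.9%) all 3 lay below. A random order of the values alone would give shares of about this size, so no overlap in a gene is a description and no test. These shares are the background against which each gene group below is read, and with DESeq2 size factors they were 12% higher and 10.3% lower. With 1 library left out, which leaves fewer values to order, the shares were between 15.4% and 27.5% higher and 17.1% and 27.1% lower. The highest of each, 27.5% and 27.1%, were without replicate 1 at 120 kPa, and they are the background for list counts without that library. Leaving out replicate 2 or 3 there instead, with as many values left to order, gave 15.8% and 15.4% higher and 17.5% and 17.1% lower. A difference of at least 1 on the log2 scale was found in 437 genes (3.12%), and in 242 of them the groups did not overlap.

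GDF3 and GATAD2B were the genes that fell. GDF3 encodes a secreted ligand of the TGF-beta family that belongs to early embryonic cells. It had 111 and 89 counts in the control libraries at 10 kPa (5.11 and 4.80 CPM) and 1, 0 and 0 counts at 120 kPa. The siNemp1 libraries had 1 and 0 counts at 10 kPa and 0 in all 3 at 120 kPa, so the transcript was essentially limited to control cells on the soft substrate. The summed counts gave a level 317.8 times higher at 10 kPa, with an exact counting interval at 95% from 56.4 to 12610.0. The fitted log2 difference was −7.85 (SE 0.73, edgeR adjusted p = 0.0180), and it passed in DESeq2 (adjusted p = 7.09e-06) and voom (adjusted p = 0.000700) too. The gene lies at chr12:7689782-7695776 on the minus strand (GRCh38).

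GATAD2B encodes a subunit of the NuRD chromatin remodelling complex. Its level was 3.82 and 4.37 CPM at 10 kPa and 0.0453, 0.1102 and 0.0842 CPM at 120 kPa in control cells. In siNemp1 cells it was 0.713 and 0.808 CPM at 10 kPa and 0.934, 2.74 and 2.03 CPM at 120 kPa, so that the order of the stiffnesses was opposite. The log2 difference was −5.60 in control cells (SE 0.54, edgeR adjusted p = 0.00940). In siNemp1 cells it was 1.32 (SE 0.45) and did not pass (edgeR adjusted p = 0.335). The test of the difference between these responses called GATAD2B and no other gene of the 13990, 0.00715% (6.92 on the log2 scale, edgeR adjusted p = 0.0207, with 235 genes at an unadjusted p under 0.05). With the replicate number as a block, since control and siNemp1 libraries of a number deviated together at 120 kPa, 4 genes were called for this difference: GATAD2B (6.88, edgeR adjusted p = 0.00346), AKR1B1, H2AC19 and BLOC1S5-TXNDC5. H2AC19 has near-identical histone copies and BLOC1S5-TXNDC5 is a readthrough gene, so the reads of both may be shared with other genes. A NuRD subunit is widely used, and some widely used genes carry unstable estimates in this table: INTS3, a subunit of the Integrator complex, had 0 counts in all 5 control libraries and 351 and 218 in 2 of the siNemp1 libraries. What part the step from reads to genes played in the value of GATAD2B was not tested. With any 1 control library left out, the log2 difference ran from −5.33 to −5.85 for GATAD2B and −7.34 to −9.71 for GDF3. The −9.71 was without replicate 1 at 120 kPa. GDF3 had 0 counts in both control libraries left there, so −9.71 is no measured fold. Most calls were lost. Without control replicate 2 at 10 kPa, or without any 1 of the 3 at 120 kPa, neither passed, with edgeR adjusted p from 0.0527 to 0.103 for GATAD2B and 0.0759 to 0.302 for GDF3. Without replicate 1 at 10 kPa, GATAD2B passed (0.0199) and GDF3 did not (0.201). A group left with 1 library is assumed there to vary like the other groups.

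GDF3 was 1 of 5 genes detected almost solely in control cells at 10 kPa. With the limits chosen after the values were seen, these genes had at least 15 counts in both of those libraries and at most 3 in each of the other 8. No gene met the same limits for any of the other 3 groups. The limits were chosen with this group in view, and a group at 120 kPa must meet them in 3 libraries, so this is a description. The others were ARHGAP25, a Rac-directed GTPase activating protein of blood cells, the steroid hydroxylase gene CYP17A1, the small GTPase gene RASD1, and SLC6A12, a transporter of betaine and GABA. ARHGAP25 had 26 and 33 counts at 10 kPa and 0 in the 3 control libraries at 120 kPa, and was at least 7.24-fold lower there, counting 0 as 3 counts in each library. RASD1 had 20 and 26 counts against 0 throughout, at least 5.57-fold lower. SLC6A12 had 37 and 17 counts against 0 throughout, at least 5.55-fold lower. CYP17A1 had 30.7 and 36.0 estimated counts against 0, 2 and 0. All 5 were called by voom, and of the 4 besides GDF3 none by edgeR (adjusted p from 0.3121 to 0.5185). The genes were picked for their difference in these same libraries, so the voom calls add no separate support. PRSS35, a secreted protease-like gene, followed at 55 and 42 counts against 3, 2 and 0.

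C3AR1, the receptor for the complement fragment C3a, had a clear level at both stiffnesses. It was at 6.49 and 4.69 CPM at 10 kPa and 1.04, 1.93 and 1.35 CPM at 120 kPa (log2 difference −1.96, SE 0.35, edgeR adjusted p = 0.337, voom 0.0326, DESeq2 0.0177). The groups did not overlap, and the siNemp1 libraries lay between 0.636 and 1.34 CPM at both stiffnesses. Its locus, chr12:8058302-8066471 on the minus strand, is on the same chromosome as GDF3.

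Among genes at a mean of at least 5 CPM with no overlap, the 10 with the smallest p in each direction did not pass edgeR's adjusted test. The lower genes had adjusted p from 0.117 to 0.79, and 9 of the 10 were called by voom. They include 2 stimulus-responsive genes and several genes of transport and adhesion.

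**Figure D1:**
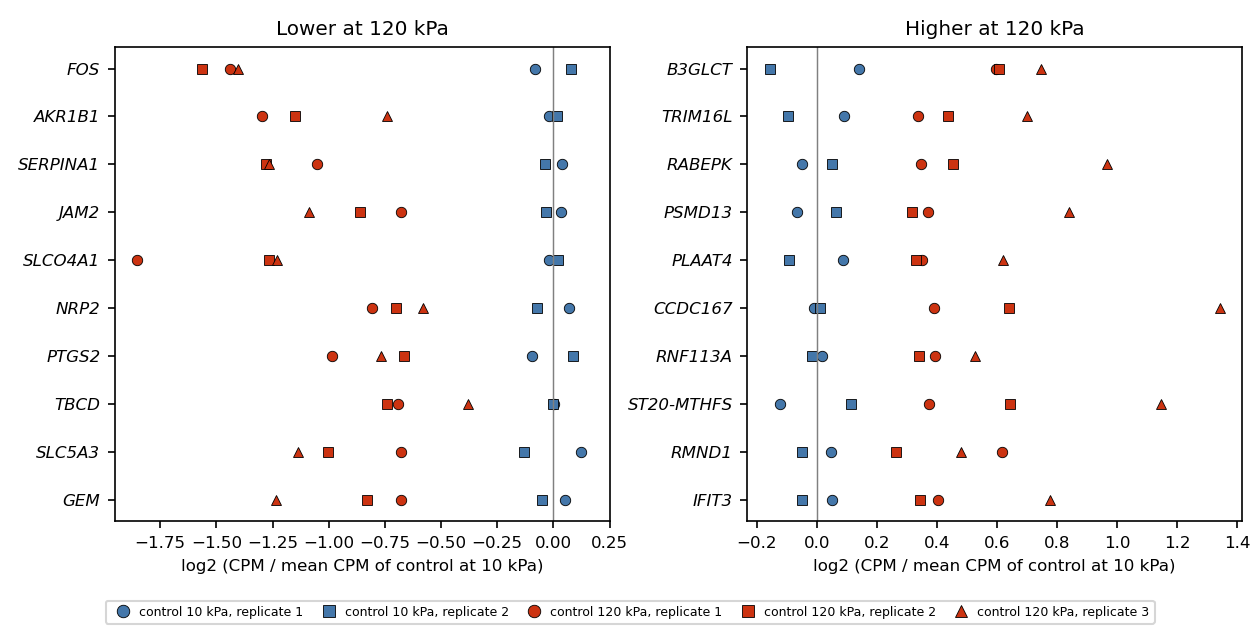
Log2 ratio of each control library to the mean of the control libraries at 10 kPa, for the 10 genes with the smallest p in each direction among those at 5 CPM or more with no overlap. Circles, squares and triangles are replicates 1, 2 and 3, blue at 10 kPa and red at 120 kPa. On the left the red points of FOS cluster near −1.5 while those of SLCO4A1 are spread, and on the right replicate 3 is the highest in 9 of 10 genes.

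FOS, the inducible AP-1 transcription factor, was at 8.01 and 8.95 CPM at 10 kPa and 3.12, 2.86 and 3.20 CPM at 120 kPa. Its groups were far apart and the spread within each was small (log2 difference −1.47, SE 0.21, edgeR adjusted p = 0.117, voom 0.0105, DESeq2 0.000408). AKR1B1, the aldose reductase that makes sorbitol from glucose, was at 1719 and 1760.4 CPM at 10 kPa and 707, 784 and 1042 CPM at 120 kPa. It was the abundant member of the set, with a log2 difference of −1.04 (SE 0.17, edgeR adjusted p = 0.267, voom 0.000593, DESeq2 3.29e-05). PTGS2, the inducible cyclooxygenase of prostaglandin synthesis, was at 8.74 and 9.92 CPM at 10 kPa and 4.71, 5.90 and 5.48 CPM at 120 kPa. Its difference of −0.80 (SE 0.18) did not pass in edgeR, voom or DESeq2 (edgeR adjusted p = 0.79, voom 0.0808, DESeq2 0.588).

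SERPINA1, the secreted protease inhibitor alpha-1-antitrypsin, was at 14.1 and 13.4 CPM at 10 kPa and 6.65, 5.67 and 5.73 CPM at 120 kPa (log2 difference −1.19, SE 0.20, edgeR adjusted p = 0.312). SLCO4A1, an organic anion transporter, was at 26.8 and 27.5 CPM against 7.51, 11.3 and 11.6 CPM. SLC5A3, which carries myo-inositol into cells, was at 39.5 and 33.1 CPM against 22.7, 18.1 and 16.5 CPM. In each of the 3 the lowest library at 10 kPa was well above the highest at 120 kPa. SLC5A3 lies inside the span of MRPS6 on the same strand (chr21:34073570-34106262 within chr21:34073224-34143034), so their reads may be shared, and MRPS6 was lower too, at 54.7 and 51.9 CPM against 40.3, 38.2 and 39.6 CPM. JAM2, a junctional adhesion molecule, was at 24.9 and 23.8 CPM against 15.2, 13.4 and 11.5 CPM. The semaphorin and VEGF coreceptor NRP2, the tubulin folding cofactor TBCD and the small GTPase gene GEM had log2 differences of −0.69, −0.59 and −0.90 (SE 0.16, 0.14 and 0.21).

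**Figure D2:**
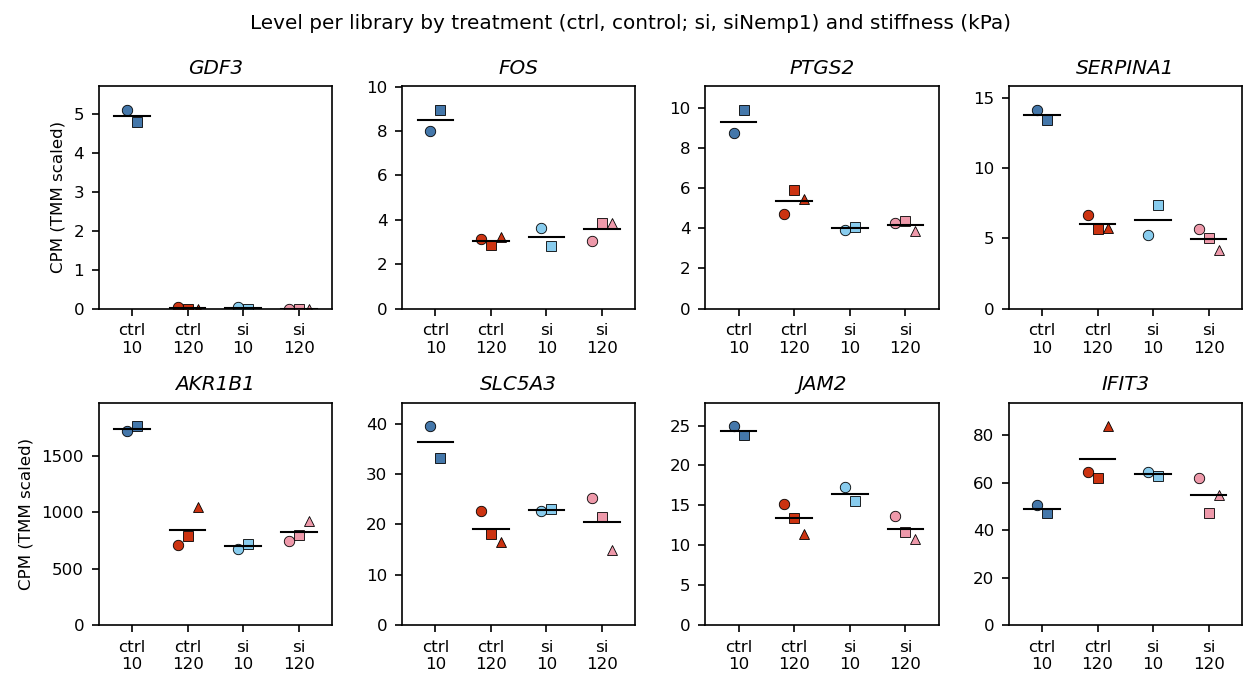
Level in CPM of 8 genes in each library, by treatment (ctrl for control, si for siNemp1) and stiffness in kPa. Points are libraries, with circles, squares and triangles for replicates 1, 2 and 3, and bars are group means. For GDF3, FOS, AKR1B1, PTGS2 and SERPINA1 the 2 control libraries at 10 kPa lie above the other 8, and for IFIT3 the control libraries at 10 kPa lie among the lowest.

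For several of these genes the control libraries at 10 kPa stood above all 8 others. FOS was at 3.65 and 2.83 CPM in siNemp1 cells at 10 kPa and at 3.05 to 3.86 CPM at 120 kPa. AKR1B1 was at 672 and 720.3 CPM and 745 to 923 CPM, PTGS2 at 3.94 and 4.09 CPM and 3.89 to 4.35 CPM. The tests of the difference between the control and siNemp1 responses did not pass for FOS (1.61 on the log2 scale, edgeR adjusted p = 0.78), AKR1B1 (1.28, adjusted p = 0.78) or PTGS2 (0.86, adjusted p = 0.9999). With the replicate block it passed for AKR1B1 (1.30, SE 0.15, edgeR adjusted p = 0.00751). These genes were picked for a high level in the 2 control libraries at 10 kPa, so that their place against the siNemp1 libraries is a description.

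The 250 bases before the RefSeq start of GDF3 and of 3 of these genes are shown. Their control levels differed between stiffnesses with no overlap, and the 3 are the lower genes in which the core named next was found. Capitals mark the core TGACG of the cAMP response element, the site of the CREB and ATF factors, or its reverse complement CGTCA. The sequences are those of RefSeq on GRCh38.p14, read 5′ to 3′ on the strand of the gene, and the genes and motifs were chosen after the values were seen.
GDF3 (chr12:7695776-7696025, minus strand): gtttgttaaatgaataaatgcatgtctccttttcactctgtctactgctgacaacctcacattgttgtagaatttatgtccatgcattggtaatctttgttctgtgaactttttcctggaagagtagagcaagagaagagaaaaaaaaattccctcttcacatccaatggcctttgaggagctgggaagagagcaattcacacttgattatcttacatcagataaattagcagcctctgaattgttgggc
FOS (chr14:75278578-75278827, plus strand): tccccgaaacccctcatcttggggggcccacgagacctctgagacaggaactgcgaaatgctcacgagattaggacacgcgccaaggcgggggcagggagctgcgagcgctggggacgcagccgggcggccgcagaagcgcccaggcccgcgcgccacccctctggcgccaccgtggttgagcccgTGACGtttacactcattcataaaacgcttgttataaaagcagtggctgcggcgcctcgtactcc
AKR1B1 (chr7:134459240-134459489, minus strand): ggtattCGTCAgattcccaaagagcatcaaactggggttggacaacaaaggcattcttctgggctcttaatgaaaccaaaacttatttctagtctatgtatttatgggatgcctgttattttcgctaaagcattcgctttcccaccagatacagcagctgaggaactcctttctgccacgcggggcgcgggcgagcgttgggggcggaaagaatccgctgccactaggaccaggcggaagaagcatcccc
PTGS2 (chr1:186680424-186680673, minus strand): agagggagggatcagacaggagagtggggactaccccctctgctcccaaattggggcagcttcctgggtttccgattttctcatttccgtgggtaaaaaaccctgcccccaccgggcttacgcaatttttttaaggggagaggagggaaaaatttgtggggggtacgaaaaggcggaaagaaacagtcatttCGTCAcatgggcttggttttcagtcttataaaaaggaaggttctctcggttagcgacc
The core lay at −64 to −60 from the start in FOS, at −58 to −54 in PTGS2 and at −244 to −240 in AKR1B1 (the more upstream of its 2 RefSeq starts), and was not found in the window of GDF3. Promoters were at hand for 7 of the 10 lower genes, and these 3 were the ones that held the core on either strand, against 21.2% of 35116 promoters of the same length. A gene was counted if any of its RefSeq starts held the core, whereas that share counts single promoters. Of the 10 higher genes 7 had a promoter and 2 of them, PSMD13 and RNF113A, held it. The full element TGACGTCA (1.65% of all promoters), the AP-1 site TGANTCA (6.57%) and the SRF site known as the CArG box (1.16%) were in none of the 14, with both strands searched. The TEAD site GGAATG, in 11.9% of all promoters, was in IFIT3 alone. The core TGGAAA of the NFAT5 site, in 18% of all promoters, was in none of the 7 lower genes and in 3 of the 7 higher ones (CCDC167, IFIT3 and RABEPK). A match describes the letters of the window and shows no binding.

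The 10 genes higher on the stiff substrate had log2 differences from 0.42 to 0.85. B3GLCT, a glucosyltransferase that modifies thrombospondin repeats, was at 9.62 and 7.82 CPM at 10 kPa and 13.2, 13.3 and 14.6 CPM at 120 kPa (log2 difference 0.65, SE 0.16, edgeR adjusted p = 0.991). PSMD13, a subunit of the proteasome lid, was at 72.9 and 79.6 CPM against 98.6, 95.04 and 136.5 CPM. CCDC167, a small coiled-coil gene, was at 7.23 and 7.33 CPM against 9.55, 11.3 and 18.4 CPM. In all 3 the groups did not overlap, and for PSMD13 and CCDC167 replicate 3 was far above replicates 1 and 2. The rest were RABEPK, of transport from endosomes to the Golgi, the phospholipase gene PLAAT4, the splicing factor gene RNF113A, RMND1, of mitochondrial translation, the readthrough gene ST20-MTHFS, IFIT3 and TRIM16L. Their log2 differences ran from 0.42 to 0.76, and TRIM16L is a near copy of TRIM16 whose reads may be shared. None passed in edgeR, voom or DESeq2. The genes that voom did call higher were IFI6, described with the interferon-stimulated genes, C3, the central complement component, and NPEPPSP1, a pseudogene that shares sequence with NPEPPS and is uncertain. C3 was at 159 and 162 CPM at 10 kPa and 190.4, 253 and 255 CPM at 120 kPa (log2 difference 0.54, SE 0.18, voom adjusted p = 0.0326, edgeR 0.991).

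Targets of the main stiffness-sensing coactivators with no overlap between stiffnesses were mostly lower at 120 kPa. Of 27 tested YAP and TAZ targets, 1 (3.7%) was higher and 7 (25.9%) were lower in all 3 libraries there. The shares over all tested genes were 10.3% and 11.9%, and the median log2 difference of the list was −0.13. CCN1, a matricellular ligand, was at 51.0 and 59.6 CPM at 10 kPa and 38.1, 104 and 119 CPM at 120 kPa. CCN2, its relative, was at 29.5 and 24.6 CPM against 28.5, 28.2 and 42.4 CPM, and ANKRD1, a titin-binding ankyrin protein, at 34.6 and 34.4 CPM against 40.7, 37.6 and 61.6 CPM. CCN1 and CCN2 thus overlapped between stiffnesses, and ANKRD1 was the 1 target above both 10 kPa libraries in all 3, with a log2 difference of 0.44 (SE 0.35, edgeR adjusted p = 0.991). The receptor kinase gene AXL was at 2645 and 2642 CPM against 2702, 2138 and 1858 CPM. The lower targets were AMOTL1, ASAP1, FOXF2, GADD45B, NT5E, PTPN14 and TEAD1, with log2 differences from −0.17 to −0.68. Leaving out replicate 1 at 120 kPa gave 7 higher and 10 lower. No member of the list was called by edgeR, and 1 had an unadjusted p under 0.05.

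Part of the pathway above them was lower in small steps, with none of its genes called. Of 18 tested genes for Hippo kinases, adaptors, YAP, TAZ and TEADs, 9 (50%) were lower in every library at 120 kPa, against 11.9% of all tested genes, and 0 were higher, with a median of −0.15. The counts were 13 lower and 2 higher without replicate 1 at 120 kPa. YAP1 was at 37.4 and 36.8 CPM against 34.2, 33.1 and 33.8 CPM, and WWTR1, which encodes TAZ, at 85.8 and 80.1 CPM against 70.4, 70.7 and 65.7 CPM. TEAD1, their DNA-binding partner, was at 71.4 and 63.5 CPM against 59.3, 52.0 and 52.4 CPM (log2 difference −0.30, SE 0.11, unadjusted p = 0.0226). LATS2 and TEAD1 are also in the list of YAP and TAZ targets, and TEAD1 is the gene with an unadjusted p under 0.05 in both lists. NF2, an upstream activator of the kinases, was at 176 and 178 CPM against 152, 157 and 151 CPM. None was called by edgeR, voom or DESeq2, and the medians of the list in replicates 1, 2 and 3 were −0.13, −0.20 and −0.18, close to each other. In siNemp1 cells 4 of the 18 were lower in every library at 120 kPa, beside 15.5% of all tested genes there, and the median was −0.0006.

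Contractile and SRF target genes split, with 4 of 29 higher and 8 lower in every library and a median of −0.05, and 11 higher and 12 lower without replicate 1 at 120 kPa. TAGLN, an actin-binding protein of smooth muscle, was at 62.7 and 68.8 CPM against 74.8, 80.7 and 148 CPM, and the light chain gene MYL6 at 751 and 764 CPM against 897, 883 and 1170.0 CPM. MYLK, the kinase of myosin light chains, went the other way, at 225 and 212 CPM against 176, 174 and 154 CPM (log2 difference −0.38, SE 0.14, unadjusted p = 0.0250). ACTA2, smooth muscle actin, was level at 152 and 153 CPM against 151, 150.2 and 169 CPM. ACTB was at 25386 and 25200.0 CPM against 23320.0, 23499 and 20304 CPM. Of 22 focal adhesion genes 5 were lower (LPP, NEDD9, TLN2, TNS1 and TNS3) and 0 higher, and of 17 integrin subunits 2 were lower (ITGA1 and ITGB6) and 0 higher. Without replicate 1 at 120 kPa 7 adhesion genes and 4 integrins were lower and 4 and 3 higher. Without replicate 2 there 10 and 7 were lower and 1 and 0 higher, beside 17.5% and 15.8% of all genes. The membrane channel PIEZO1, which opens under tension, was at 50.9 and 48.2 CPM against 27.1, 55.8 and 53.4 CPM, and the log2 difference of −0.13 became 0.14 without replicate 1. Of 12 tension-sensitive channels 2 were lower (LRRC8A and TRPV2) and 0 higher, and 3 were lower and 2 higher without replicate 1 at 120 kPa. CAV1, the coat protein of caveolae, was at 780.5 and 772 CPM against 824, 661 and 489.6 CPM.

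Most matrix genes with no overlap were lower. Of 34 collagens and matrix glycoproteins, 8 (23.5%) were lower and 1 higher in every library at 120 kPa, with a median of −0.17. COL12A1, a collagen that bridges fibrils, was at 54.2 and 48.5 CPM against 38.4, 42.0 and 39.5 CPM (log2 difference −0.36, SE 0.15, unadjusted p = 0.0397). FN1, fibronectin, was at 9357 and 9085 CPM against 8924, 7841 and 4933 CPM, and the laminin chain LAMB1 at 470.1 and 465 CPM against 439, 403 and 315 CPM. Replicate 3 was the lowest for FN1 and LAMB1 and replicate 1 for COL12A1. COL1A1, a chain of fibrillar collagen, overlapped at 4.92 and 6.26 CPM against 5.93, 7.22 and 7.41 CPM. Of 30 genes that remodel or crosslink the matrix, 6 were lower and 0 higher, among them the inhibitor of metalloproteinases TIMP2 (179.9 and 164 CPM against 156, 134 and 119 CPM). Without replicate 1 at 120 kPa 12 of the 34 were lower and 5 higher, and 10 and 8 of the 30. The count of lower collagens and glycoproteins was 16 without replicate 2 at 10 kPa, beside 21.1% of all genes. It was 13 without replicate 2 or 3 at 120 kPa, beside 17.5% and 17.1% of all genes. No member of these 2 lists was called.

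Nuclear envelope genes with no overlap had small differences, most of them downward. Of 30 genes for LINC components, lamins and their partners, 7 (23.3%) were lower in every library and 2 higher, with a median of −0.09, and 12 were lower and 8 higher without replicate 1 at 120 kPa. Among the 7, MAN1A1 is a Golgi mannosidase and no envelope protein. SYNE2, the nesprin-2 gene, was at 17.9 and 15.7 CPM at 10 kPa and 12.7, 13.4 and 12.4 CPM at 120 kPa, with no overlap (log2 difference −0.39, SE 0.19, edgeR adjusted p = 0.991). The lamin gene LMNA was at 481 and 479 CPM against 254, 632 and 629 CPM, with replicate 1 far below and the other 2 above. LMNB1 was at 8.01 and 7.55 CPM against 6.16, 6.45 and 7.03 CPM. The pore proteins NUP153 and NUP210 were lower with log2 differences of −0.36 and −0.38 (SE 0.14 for both). SUN1, SUN2 and EMD, the gene for emerin, overlapped between stiffnesses, with differences of −0.12, 0.15 and −0.16. LMNA, EMD and PIEZO1 are low in replicate 1 alone, the library in which genes of high GC content were low. What part GC content played in the values of these genes was not tested.

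**Figure D3:**
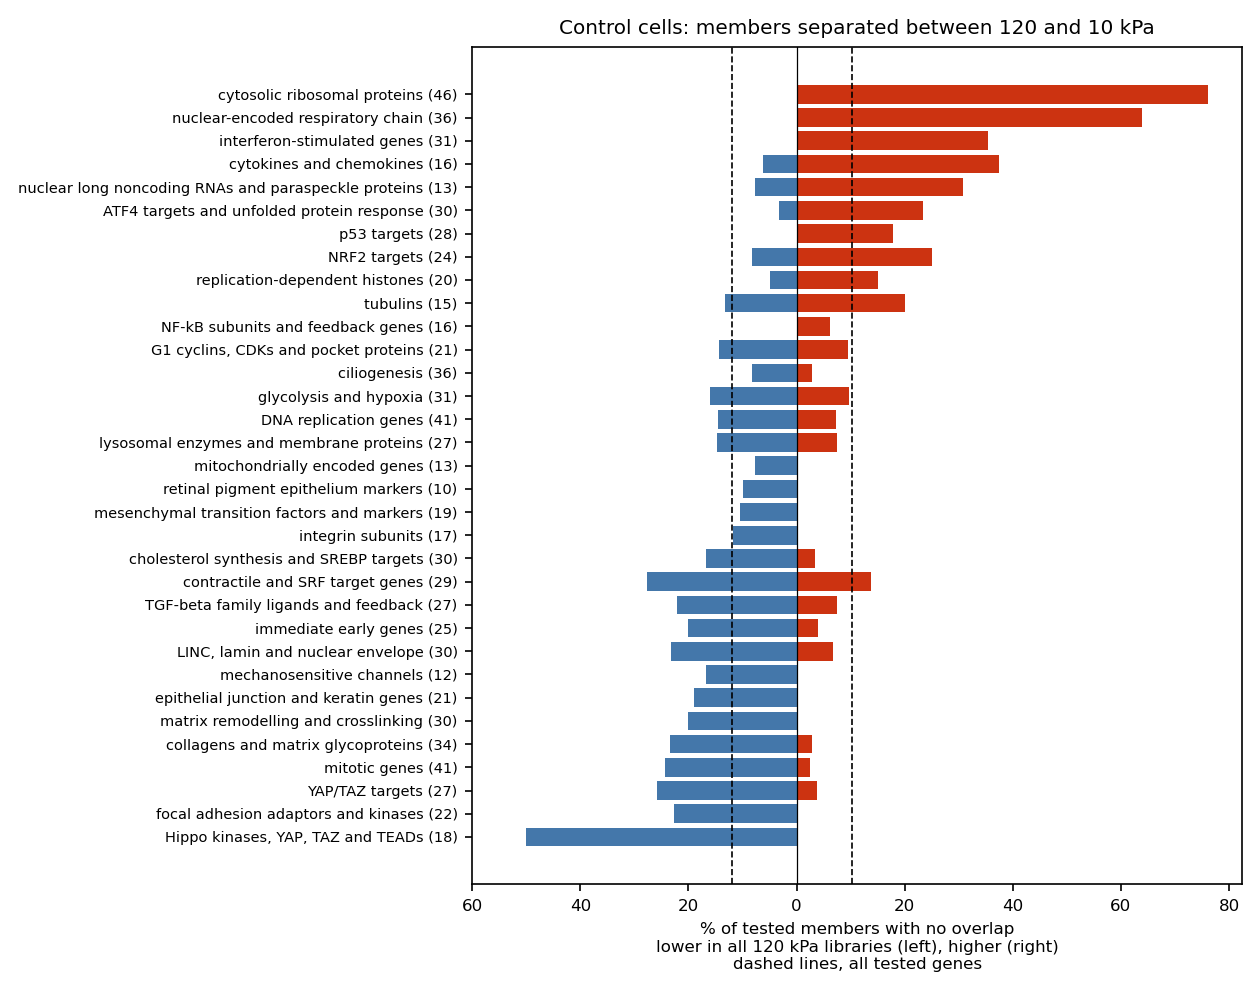
Percent of the tested members of each gene list for which all 3 control libraries at 120 kPa lay below (blue, left) or above (red, right) both at 10 kPa, with the number of tested members in brackets. Dashed lines mark the shares over all tested genes, 11.9% lower and 10.3% higher. Ribosomal protein genes reach 76.1% on the right and the Hippo list 50% on the left.

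Interferon-stimulated genes, which cells switch on in response to interferon or to nucleic acid in the cytosol, leaned upward in control cells. Of 31 tested, 11 (35.5%) were higher in all 3 libraries at 120 kPa and 0 lower, against 10.3% and 11.9% of all genes, and the median was 0.19. IFIT3, which binds in an antiviral complex with its relatives, was at 50.6 and 47.2 CPM at 10 kPa and 64.7, 62.1 and 83.8 CPM at 120 kPa (log2 difference 0.52, SE 0.16, edgeR adjusted p = 0.991). OAS1, a sensor of double-stranded RNA, was at 15.5 and 15.6 CPM against 20.1, 20.8 and 22.7 CPM. OASL was at 1.52 and 2.10 CPM against 2.63, 4.02 and 6.15 CPM, and USP18, a brake on the interferon receptor, at 2.30 and 1.51 CPM against 3.39, 4.35 and 4.17 CPM. In these 4 genes every stiff library was above every soft one. IFI6 was at 31.4 and 31.6 CPM against 34.9, 92.6 and 189 CPM and was called by voom (adjusted p = 0.0341) and not by edgeR (0.991). ISG15, the ubiquitin-like product of the response, was at 9.62 and 10.2 CPM against 8.55, 26.4 and 56.1 CPM and overlapped through replicate 1. The members that overlapped included STAT2, IRF9, MX1 and OAS3, with log2 differences from −0.32 to −0.04. No member was called by edgeR, and 7 had an unadjusted p under 0.05, all higher. With replicate 1 at 120 kPa left out, 16 were higher and 5 lower. In siNemp1 cells 5 of the 31 were higher and 8 lower, beside 18.2% and 15.5% of all tested genes there. IFIT3 in siNemp1 cells was at 64.6 and 62.7 CPM at 10 kPa and 61.8, 47.2 and 55.0 CPM at 120 kPa. The difference between the 2 responses did not pass for IFIT3 (−0.74, unadjusted p = 0.00701, edgeR adjusted p = 0.9999).

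Several chemokine and cytokine genes were higher in every stiff library, by amounts that differed widely between replicates, and none was called. Of 16 tested, 6 (37.5%, against 10.3% of all genes) were higher in all 3 libraries and 1 lower (TNFSF15), with a median of 1.19. The count was 10 higher without replicate 1 at 120 kPa. CXCL8, the neutrophil attractant interleukin-8, was at 3.41 and 2.80 CPM at 10 kPa and 7.24, 38.0 and 107 CPM at 120 kPa. CXCL1 was at 3.45 and 4.53 CPM against 5.66, 10.6 and 14.6 CPM, and CXCL2 at 0.966 and 0.809 CPM against 1.45, 3.31 and 5.35 CPM. All 3 showed no overlap and the same order, with replicate 3 highest and replicate 1 lowest. IL6 was at 15.004 and 13.05 CPM against 14.98, 26.8 and 48.4 CPM, and IL1B at 5.57 and 7.12 CPM against 7.69, 19.2 and 51.3 CPM. The log2 difference of CXCL8 was 4.03 with an SE of 1.38 (edgeR adjusted p = 0.991), and none of the list was called by edgeR, voom or DESeq2. In siNemp1 cells CXCL8 was at 7.55 and 6.36 CPM at 10 kPa and 12.7, 93.2 and 162 CPM at 120 kPa, in the same order of replicates. Control and siNemp1 libraries of the same number at 120 kPa deviated together, so this order adds no separate support. The medians of the list in the 3 control libraries at 120 kPa were 0.16, 0.66 and 1.18 for replicates 1, 2 and 3.

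**Figure D4:**
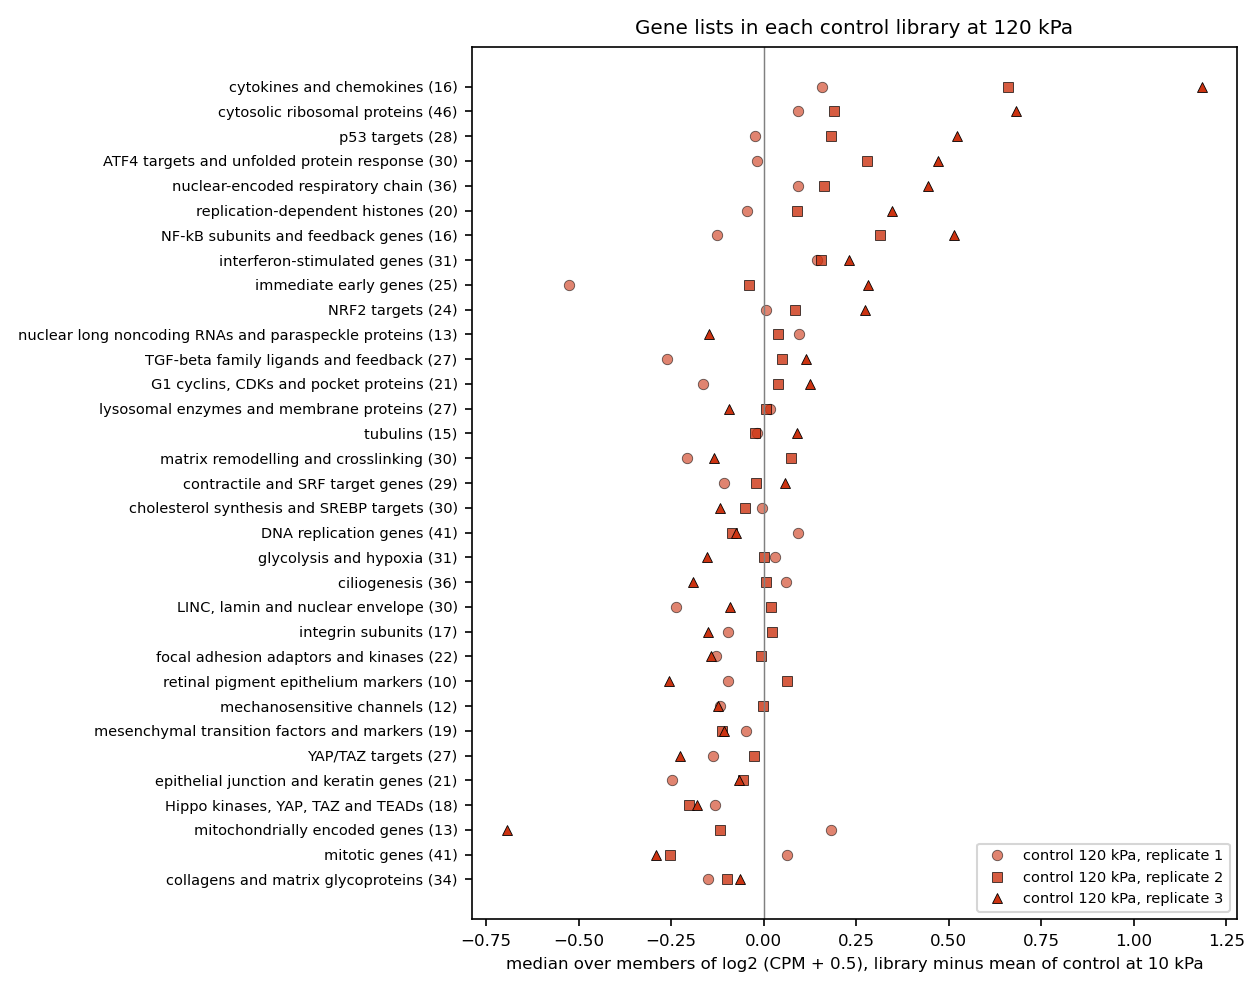
Median over the members of each gene list of the log2 level in a control library at 120 kPa minus the mean of the control libraries at 10 kPa. Circles, squares and triangles are replicates 1, 2 and 3, and the number of tested members is in brackets. For cytokines the 3 replicates lie at 0.16, 0.66 and 1.18, whereas for interferon-stimulated genes they lie between 0.14 and 0.23.

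The TGF-beta list held GDF3 as its 1 called member (of 27 tested, against 0.0143% of all genes). In it 6 genes were lower in every stiff library (GDF3, BMP4, FST, GDF5, GDF11 and LTBP2) and 2 were higher (BMP2 and LTBP1), with a median of −0.01, and 7 were lower and 10 higher without replicate 1 at 120 kPa. The ligand gene BMP2 was at 1.565 and 1.564 CPM at 10 kPa and 2.04, 2.86 and 4.13 CPM at 120 kPa, and GDF5, a ligand of joint formation, at 1.197 and 0.755 CPM against 0.226, 0.551 and 0.463 CPM. Both had no overlap and an edgeR adjusted p of 0.991.

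Stress lists varied among the stiff libraries in the same order as the cytokines. Of 28 p53 targets 5 were higher in all 3 (BBC3, FAS, MDM2, RRM2B and TRIAP1) and 0 lower, and the list medians were −0.02, 0.18 and 0.52 in replicates 1, 2 and 3. CDKN1A, the p53-induced inhibitor of cyclin-dependent kinases, was at 352 and 366 CPM at 10 kPa and 260.4, 505 and 839 CPM at 120 kPa. Of 30 targets of ATF4 and of the unfolded protein response 7 were higher and 1 lower (CANX), with medians of −0.02, 0.28 and 0.47. ASNS, asparagine synthetase, was at 18.1 and 17.8 CPM against 20.1, 38.1 and 81.3 CPM, and CHAC1, which degrades glutathione, at 1.89 and 2.05 CPM against 1.95, 6.45 and 17.7 CPM. HSPA5, the main chaperone of the endoplasmic reticulum, was at 2125 and 2143 CPM against 2217, 2469 and 2346 CPM. Of 16 NF-kB subunits and feedback genes 1 was higher in all 3, the nuclear inhibitor NFKBIZ. In these 3 lists replicate 1 at 120 kPa was close to the soft libraries and replicate 3 was farthest from them. Leaving out replicate 1 raised the p53 targets with no overlap from 5 to 19, the ATF4 and unfolded protein response genes from 7 to 19 and the NF-kB genes from 1 to 11, while the share of all genes that were higher went to 27.5%.

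Immediate early genes, the first to respond to a stimulus, split and varied with the library. Of 25 tested, 5 were lower in every library at 120 kPa (FOS, FOSL2, NR4A1, NR4A2 and ZFP36) and 1 was higher (KLF10). The list medians were −0.53, −0.04 and 0.28 in replicates 1, 2 and 3, and the median log2 difference was 0.13. Without replicate 1 at 120 kPa 12 were higher and 7 lower. Without replicate 3 there 1 was higher and 9 lower, beside 15.4% and 17.1% of all genes. NR4A2, an orphan nuclear receptor, was at 7.13 and 5.39 CPM at 10 kPa and 1.99, 2.86 and 3.33 CPM at 120 kPa (log2 difference −1.20, SE 0.28, edgeR adjusted p = 0.847). Its relative NR4A1 was at 5.02 and 4.04 CPM against 2.22, 2.98 and 3.24 CPM. EGR1, FOSB, JUN and MYC overlapped, and ATF3, a stress-induced member, was at 0.966 and 0.809 CPM against 0.815, 4.24 and 10.9 CPM.

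Ribosomal protein genes showed the most complete separation of the lists. Of 46 tested genes for cytosolic ribosomal proteins, 35 (76.1%) were higher in all 3 stiff libraries and 0 lower, with a median log2 difference of 0.33. RPS6, a small-subunit protein phosphorylated downstream of mTOR, was at 831 and 846 CPM at 10 kPa and 952, 1068 and 1685 CPM at 120 kPa. RPLP0, of the ribosomal stalk, was at 2681 and 2744 CPM against 3240.3, 3269 and 4775 CPM. Replicate 3 stood far above the others, and the list medians were 0.09, 0.19 and 0.68 in replicates 1, 2 and 3. Without replicate 3 the count was 35 of 46, beside 15.4% of all genes, and with trends of gene length and GC content removed it was 32. Without replicate 1 at 120 kPa 40 were higher and 1 was lower, beside 27.5% and 27.1% of all genes. No member was called (lowest edgeR adjusted p 0.991), and 12 had an unadjusted p under 0.05. In siNemp1 cells 41 were higher in every library at 120 kPa, beside 18.2% of all tested genes there.

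Nuclear genes of the respiratory chain had a like pattern, and the mitochondrially encoded ones did not. Of 36 nuclear-encoded genes, 23 (63.9%) were higher in all 3 libraries and 0 lower, with a median of 0.23, and 17 with trends of length and GC content removed. Without replicate 1 at 120 kPa 30 were higher and 2 lower. COX4I1, a subunit of cytochrome c oxidase, was at 424 and 431 CPM against 476, 533 and 679.7 CPM, and NDUFA9, of complex I, at 52.1 and 49.8 CPM against 60.6, 59.9 and 75.7 CPM. Of the 13 genes encoded in mitochondrial DNA, 0 were higher and 1 (MT-ND3) was lower in all 3, and without replicate 1 at 120 kPa 11 were lower. Their medians were 0.18, −0.12 and −0.69 in replicates 1, 2 and 3, so that replicate 1 was above the soft libraries and replicate 3 below. MT-CO3 was at 991 and 975 CPM against 1077, 852 and 548 CPM. None of the 49 genes was called by edgeR, where 8 of the nuclear-encoded and 0 of the mitochondrially encoded had an unadjusted p under 0.05.

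**Figure D5:**
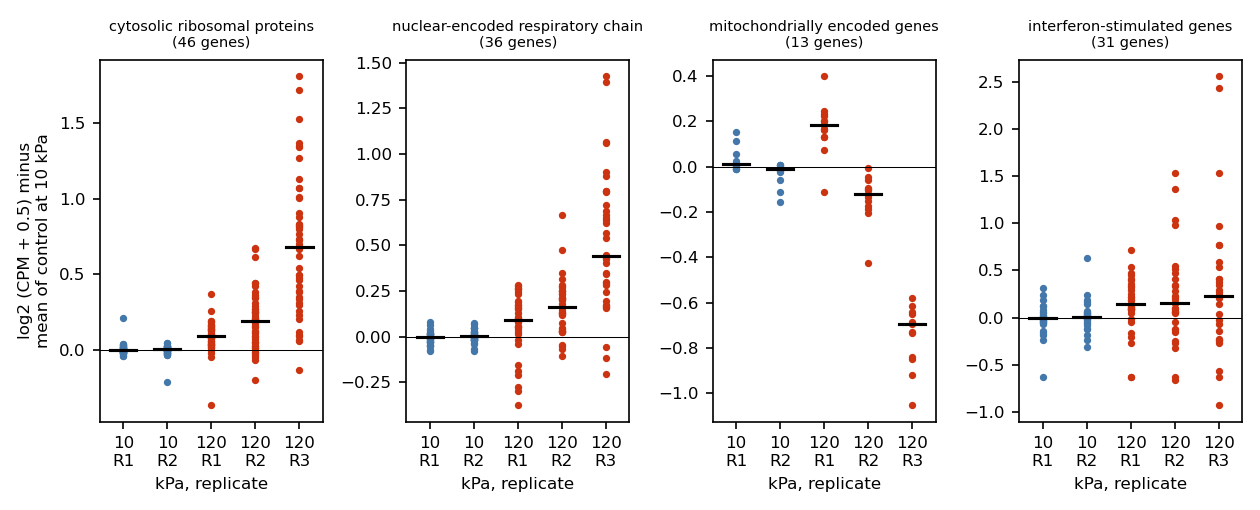
Log2 (CPM + 0.5) of each member minus its mean in the control libraries at 10 kPa, for 4 gene lists, by stiffness in kPa and replicate (R). Points are genes, blue at 10 kPa and red at 120 kPa, and bars are medians over the list. Ribosomal protein and respiratory chain genes lie mostly above 0 in all 3 stiff libraries, mitochondrially encoded genes lie above 0 in replicate 1 and below it in replicate 3, and most interferon-stimulated genes change little while a few lie far above.

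Mitotic genes had a median below that of the soft libraries in 2 of the 3 stiff ones. Of 41 mitotic genes, 10 (24.4%) were lower in all 3 and 1 was higher, with a median of −0.16, and the list medians were 0.06, −0.25 and −0.29 in replicates 1, 2 and 3. Without replicate 1 the count was 32 of 41, beside 27.1% of all genes. MKI67, the proliferation antigen Ki-67, was at 104 and 102 CPM at 10 kPa and 91.3, 74.5 and 83.4 CPM at 120 kPa. ASPM, a spindle pole protein, was at 53.7 and 48.7 CPM against 46.9, 33.4 and 36.1 CPM (log2 difference −0.40, SE 0.21, edgeR adjusted p = 0.991). Of 41 DNA replication genes 6 were lower and 3 higher, near the shares over all genes, and 16 were lower and 6 higher without replicate 1 at 120 kPa. Of 20 replication-dependent histone genes, whose near-identical copies can share reads, 3 were higher and 1 was lower, and 8 were higher without that library.

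The remaining lists split in both directions. In every stiff library 3 of 15 tubulins were higher and 2 lower, 1 and 3 of 36 ciliogenesis genes, 2 and 3 of 21 G1 cyclins and partners, 2 and 4 of 27 lysosomal genes, 3 and 5 of 31 glycolysis and hypoxia genes and 1 and 5 of 30 cholesterol genes. The counts without replicate 1 at 120 kPa, higher and lower, were 6 and 5 for tubulins, 5 and 12 for ciliogenesis, 9 and 3 for G1 cyclins and partners, 7 and 8 for lysosomal genes, 8 and 13 for glycolysis and hypoxia and 3 and 17 for cholesterol genes. The higher cholesterol gene with all libraries was FDFT1, a widely used gene with 0 to 12.6 counts per control library, so its estimate is uncertain.

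Few markers of cell identity were separated between stiffnesses. Of 21 tested epithelial junction and keratin genes 4 were lower, AFDN, DSP and KRT80 among them, and 0 higher. DSP, desmoplakin, was at 91.0 and 92.0 CPM against 71.7, 72.2 and 73.0 CPM, with no overlap and a narrow spread (log2 difference −0.34, SE 0.12, edgeR adjusted p = 0.991). Of 10 tested pigment epithelium markers 1 was lower (SERPINF1) and 0 higher, and of 19 mesenchymal genes 2 were lower (FN1 and SNAI1). Without replicate 1 at 120 kPa 7 junction and keratin genes, 3 pigment epithelium markers and 9 mesenchymal genes were lower, and 3, 2 and 1 higher. The shares over all genes were then 27.1% lower and 27.5% higher. VIM overlapped at 2998 and 2869 CPM against 2125, 2869.8 and 2299.8 CPM. The summed level of 9 fibroblast markers was 1094 to 1099 CPM at 10 kPa and 800.5 to 1100.5 CPM at 120 kPa, with COL3A1 at 0 in all control libraries. That of 12 endothelial, immune and neuronal markers was 1679 to 1682 CPM against 1179.7 to 1635 CPM, with CDH5 at 0 and RBFOX3 at 1 count or fewer, and CD68 and TUBB3 the abundant members. The median log2 difference of its 7 tested members was −0.20, with 0.06, −0.17 and −0.38 in replicates 1, 2 and 3, and 1 was lower in every stiff library (SYT1), or 4 without replicate 1. The part of such cells in the results was not tested.

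The response of siNemp1 cells, measured in 5 separate libraries, shared part of these genes. No gene was called there by edgeR (1655 at an unadjusted p under 0.05), where voom called 1138 and DESeq2 111. In 2553 genes (18.2%) all 3 siNemp1 libraries at 120 kPa lay above both at 10 kPa, and in 2163 (15.5%) below. Of the 1447 genes higher in control cells 789 were higher in siNemp1 cells too, which is 54.5% of the control genes and 30.9% of the siNemp1 genes, and 38 (2.63%) were lower. Of the 1661 lower genes 579 were lower in both, 34.9% of the control and 26.8% of the siNemp1 genes, and 58 (3.49%) were higher. Control and siNemp1 libraries of the same number at 120 kPa deviated together, so that what the libraries of a number share enters both responses. NEAT1, the long noncoding RNA of paraspeckles, was at 518 and 494 CPM in control cells at 10 kPa and 862, 726 and 557 CPM at 120 kPa. In siNemp1 cells it was at 459 and 469 CPM at 10 kPa and 304, 292 and 348 CPM at 120 kPa, the opposite order with no overlap in either treatment. The test of the difference for NEAT1 did not pass (−1.06 on the log2 scale, SE 0.24, unadjusted p = 0.00117, edgeR adjusted p = 0.9999).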

How the data were processed

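The 5 control and 5 siNemp1 libraries were grouped by treatment and stiffness from their titles. Ribosomal RNA was removed from total RNA with RNase H and cDNA was made from random hexamers, per the labels. The sources give no strand, so overlapping genes on opposite strands cannot be told apart. Salmon 1.80 (written so), Trimmomatic 0.33, FastQC 0.11.9, edgeR and GRCh38 are named in the submitters' processing notes. The authors deposited expected counts, which are estimated reads per gene with no scaling between libraries, totalling 17.9 to 23.8 M per library.

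The estimates were rounded, filtered with filterByExpr and scaled by TMM. All 10 libraries entered a quasi-likelihood model with a mean for each group (edgeR 4.0.16, limma 3.58.1, DESeq2 1.42.0, R 4.3.3), with 6 residual degrees of freedom and Benjamini-Hochberg adjustment over 13990 genes. The fit was tested on simulated data. Coordinates are from GENCODE 29 (GRCh38). Length and GC content were known for 98.8% of tested genes, and their trends were removed as offsets fitted with mgcv 1.9.3 in an alternative. Control and siNemp1 libraries of the same number at 120 kPa deviated together from their group means (correlations across genes of 0.426, 0.157 and 0.359), so the difference between treatments is also given with the replicate number as a block. Intervals and the floor of 3 counts cover counting error only.

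The comparison, the 36 gene lists (932 symbols, of which 19 were not found in the table) and the alternatives were chosen with earlier results of these data known. Named genes were the 10 with the smallest p in each direction at a mean of at least 5 CPM, with no overlap and a standard symbol, up to 4 members of each list with a called member or a median at least 0.15 from that of all genes, and a fixed set of well-known mechanosensing genes. Other genes named were chosen after their values were seen.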

Additional observations from a re-analysis of the deposited data

Results flagged for a closer look

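GATAD2B is singled out because its response to stiffness differed between control and siNemp1 cells by a test of that difference, 6.92 on the log2 scale (edgeR adjusted p = 0.0207). It was lower at 120 kPa in all 3 control libraries and higher at 120 kPa in all 3 siNemp1 libraries, at under 5 CPM throughout. The rise in siNemp1 cells did not pass by itself (edgeR adjusted p = 0.335).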

How the results depend on the processing

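The count of genes called by edgeR between 120 and 10 kPa in control cells was 2 with all libraries, and 0 with a filter of at least 5 CPM in 2 libraries (425 at an unadjusted p under 0.05), 159 with no filter, 12 in DESeq2 and 26 in voom. Leaving out 1 library gave 0 to 3. The corresponding counts were 0 for siNemp1 cells, with 1 from only their 5 libraries, 529 with no filter, 111 in DESeq2, 1138 in voom and 0 to 2 with a library left out, and 1 for the difference between the responses, with 70, 3 and 6 for no filter, DESeq2 and voom, 0 with the filter of 5 CPM and 0 to 3 with a library left out. DESeq2 size factors, upper-quartile scaling and removal of length and GC trends moved none of the 3 counts. The cause of these changes was not tested, apart from the number of genes and libraries each setting leaves. Genes higher in every stiff library numbered 2160 to 3844 and lower 2391 to 3794 with a library left out, which lowers the number of values that must be ordered. The highest of each were without control replicate 1 at 120 kPa.

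Whether same-numbered libraries of the 2 stiffnesses belong together is not known from the sources. Their deviations had correlations of 0.0473 and 0.0290 in control cells and −0.104 and −0.0849 in siNemp1 cells. With 2 libraries at 10 kPa, the deviations of replicate 1 there mirror those of replicate 2. These correlations therefore cannot decide whether a number marks a shared batch. The fits with a replicate block for each treatment are given here alone, and that for the difference between treatments also beside its result. With the block in the fit of all libraries 3, 2 and 4 genes were called in control cells, siNemp1 cells and for the difference. With the block in the fit of 5 libraries, which leaves 1 residual degree of freedom, 21 were called in control and 227 in siNemp1 cells.

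The signs that turned were of genes that did not pass, all within 0.2 of 0 on the log2 scale apart from CDKN1A at 0.58. With the block in all libraries and in 5, ACTA2 went to −0.0144 and −0.0221, GAPDH to 0.0462 and 0.0083, LMNA to −0.108 and −0.260 and NEMP1 to 0.128 and 0.0406, CDKN1A to −0.0177 in the first and SUN1 to 0.0455 in the second. In voom PIEZO1 went to 0.0614, ACTA2 to −0.0007 and SUN1 to 0.0258, and with length and GC trends removed LMNA went to −0.0133 and NEMP1 to 0.0445. With a library left out, the log2 difference ran from −0.282 (without control replicate 2 at 120 kPa) to 0.0396 (without replicate 1) for EMD, from −0.308 to 0.141 (the same libraries) for PIEZO1 and from −0.382 (without replicate 1) to 0.0041 (without replicate 3) for MT-ND4. It ran from −0.0239 to 0.0642 for ACTA2, −0.199 to 0.0144 for GAPDH, −0.129 to 0.397 for LMNA, −0.267 to 0.0455 for SUN1 and −0.155 to 0.144 for NEMP1. For genes with 0 to 3 counts at 120 kPa, depth limits the fold to the bounds and intervals given.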

Other observations

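Several of the genes lower on the stiff substrate in control cells handle osmolytes, the small solutes with which cells balance osmotic pressure. The set was put together after the values were seen and has no test of its own. AKR1B1, which makes sorbitol, SLC5A3, which imports inositol, SLC6A12, which imports betaine, and the small heat shock gene CRYAB were lower in all 3 control libraries at 120 kPa. CRYAB was at 29.1 and 29.7 CPM at 10 kPa and 19.7, 15.3 and 15.5 CPM at 120 kPa (voom adjusted p = 0.0179, edgeR 0.946). SLC6A6, the taurine importer, was at 34.8 and 32.5 CPM against 29.9, 29.6 and 21.2 CPM, with no overlap and a log2 difference of −0.32 (SE 0.23). NFAT5, the transcription factor that governs such genes, was at 29.8 and 33.2 CPM against 27.0, 26.9 and 26.4 CPM. HSPA4L, at 14.7 and 18.1 CPM against 19.1, 15.9 and 17.2 CPM, and the amino acid importer SLC38A2, at 661 and 654 CPM against 768, 589 and 524 CPM, overlapped.

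GAS5 and SNHG1, both noncoding host genes of small nucleolar RNAs, were higher in every stiff control library and were picked after their values were seen. GAS5 was at 80.4 and 85.0 CPM at 10 kPa and 88.3, 184 and 407 CPM at 120 kPa, and SNHG1 at 26.7 and 25.2 CPM against 27.9, 29.9 and 46.2 CPM. Both had no overlap and their highest level in replicate 3, the library with the highest share of ribosomal protein genes. Among 24 NRF2 targets, which defend cells against oxidants, 6 were higher in all 3 control libraries (NQO1, PRDX1, SLC7A11, TALDO1, TXN and TXNRD1, with log2 differences from 0.14 to 0.29, and 12 without replicate 1 at 120 kPa) and 2 were lower (AKR1B1 and AKR1C2, the latter with near-identical relatives). Among genes lower in all 3 stiff libraries and called by voom, AHNAK, a large scaffold protein, was at 364 and 333 CPM against 298, 245 and 238 CPM. The transcriptional repressor BCL6 was at 45.3 and 40.3 CPM against 28.8, 25.9 and 23.1 CPM.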
